A study of Homo sapiens with 4 samples.

Results

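Broad HOXB13 peaks were the peaks of the GSK2879552 list that were at least 500 bp wide. They were chosen by their width (end minus start) on chromosomes 1 to 22 and X of the hg19 build, leaving out peaks within 2 Mb of a stretch of at least 2.5 Mb without any GSK2879552 peak. This gave 1579 members among the 64691 peaks that the same rule of location left, a share of 2.44%. Of the 1763 deposited GSK2879552 peaks of that width, 103 lay in the flanks of the 26 long peak-free stretches, 23 on chromosome Y and 58 on other sequences. Width, and every value of the same peaks in the same library, served the choice or came with it, so these are described and carry no test. The vehicle peak list was the measure the choice did not use.

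HOXB13, a posterior HOX protein of prostate epithelium, binds AT-rich sequence, often at enhancers that also bind the androgen receptor and FOXA1. A bound site in a chromatin immunoprecipitation gives a peak about as wide as the sequenced fragments. A wider peak can hold several bound sites side by side, or tags spread over a longer stretch, and a list with 1 summit per peak does not tell these apart. LSD1 (KDM1A), the target of GSK2879552, is a histone demethylase found at many of the same enhancers.

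The data were 2 lists of HOXB13 peaks from LNCaP, an established, androgen-sensitive human prostate cancer cell line. Cells were kept in RPMI-1640 with 10% FBS and, for treatment, grown in RPMI1640 with 5% CSS. The GSK2879552 group is labelled as 50 µM for 4 hours, and the other group as vehicle. The treatment text names the inhibitor in all 4 samples, so the vehicle group rests on titles and descriptions. Each treatment was 1 library on 2 lanes with 1 peak list, so no value has an error between cultures and differences between the lists cannot be told apart from differences between these 2 libraries. Intervals are exact 95% binomial intervals and cover counting error only. The most frequent local background among peaks was 2.79 tags for GSK2879552, taken below as the genome-wide value since it was also the lowest, and 0.443 tags for vehicle. The lowest pileups called were 10 and 5 tags. The vehicle list was far shorter, with 3722 peaks against 68725.

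Broad peaks ranged from 500 to 1782 bp, with a median of 566 bp and quartiles of 527 and 631 bp. Of the 1579, 1022 were under 600 bp, 391 were 600 to under 700 bp, 105 were 700 to under 800 bp and 61 were wider. They covered 939 kb, 6.33% of the sequence under all 64691 peaks. The pileup at the summit, the number of overlapping extended tags solved from the deposited fold enrichment and p-value, ranged from 13 to 245 with a median of 36. Narrower peaks had a median pileup of 18. Fold enrichment over the local background, the authors' value per peak, had a median of 6.43 in broad peaks (quartiles 5.23 and 8.03) and 4.22 in narrower ones. Across all 64691 peaks, width and pileup rose together (Spearman's rho 0.58), while within the 1579 broad peaks they were only weakly related (rho 0.14). All these peaks share 1 library.

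**Figure D1:**
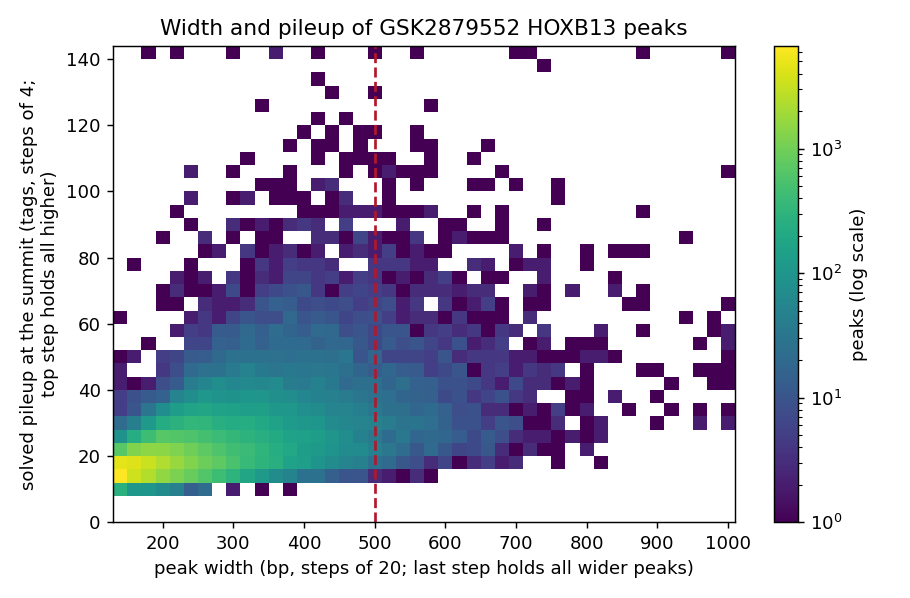
Peak width (x, bp) against solved pileup at the summit (y, tags) for the 64691 GSK2879552 peaks, with the number of peaks per cell on a log colour scale and the last step of each axis holding all higher values. The dashed line marks 500 bp. Broad peaks to its right start at a pileup of 13 and have a median of 36. Narrower peaks have a median of 18 and range from 10 to 208.

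At the limit, the tallest members and the tallest excluded peaks were as follows. The 3 members of exactly 500 bp with the highest −log10 p lay at chr7:51674372-51674871, chr10:105247066-105247565 and chr4:154715206-154715705, with pileups of 106, 81 and 57. The 3 peaks of 499 bp with the highest −log10 p, at chr1:108078740-108079238, chr8:94723167-94723665 and chr12:74785981-74786479, had pileups of 42, 48 and 38. The first 3 held 2, 1 and 1 vehicle peaks, and the second of the other 3 held 1.

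The widest broad peak lay at chr5:10006-11787, near the start of the chromosome's sequence. It spanned 1782 bp, and its 50 tags at the summit stood over 8.45 of background, an enrichment of 5.40. The peak at chrX:185484-186966 spanned 1483 bp with a pileup of 55. A peak of 1474 bp lay at chr17:41399746-41401219, with 52 tags and a fold enrichment of 6.71. The 4th, chr10:135500259-135501393, spanned 1135 bp and had a pileup of 64. These 4 pileups lay at or somewhat above the upper quartile of the broad peaks, 50. The 5th widest, chr1:569219-570286 with 1068 bp, reached 224 tags, but over 70.9 of background, and so a fold enrichment of only 3.13. The remaining 5 of the 10 widest, on chromosomes 5, 11, 6, 4 and 4, spanned 1036, 1033, 1024, 1020 and 1005 bp, with pileups of 56, 59, 104, 29 and 44.

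The 5 broad peaks with the highest fold enrichment were 508 to 755 bp wide. The first, chr3:53179342-53179849, spanned 508 bp, with 109 tags over 5.59 of background and a fold enrichment of 16.7. It was followed by chr9:129773754-129774424 with 16.5 and a width of 671 bp, and by chr2:159214073-159214827 with 16.2 and 755 bp. Peaks at chr22:20689263-20689789 and chr2:88124333-88124869 had fold enrichments of 16.2 and 15.4. Each of these 5 held 1 vehicle peak, whose summit lay 17, 64, 10, 8 and 2 bp away. The vehicle fold enrichments there were 12.4, 9.0, 10.7, 19.2 and 20.2, in the same order and relative to the vehicle library's own background.

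Local background was higher at broad peaks. Its median was 1.696 times the genome-wide value (interval of the median 1.67 to 1.72), against 1.59 times in narrower peaks weighted to the pileups of the broad ones. It reached 2 times the genome-wide value at 401 broad peaks, 25.4% (23.3 to 27.6), and at 3.37% of the narrower peaks, not weighted. The local window of a peak holds that peak's own tags if the background came from the same library, and the part this plays was not tested. It reached 5 times at 8 broad peaks. They lay in 3 places: 4 between chr1:564485 and chr1:570286 with backgrounds of 69.9 to 71.1 tags, 2 between chr18:107869 and chr18:109592 with up to 25.2 tags, and 2 between chr9:68417483 and chr9:68421033 with 42.1 and 42.3 tags. Of the 5 broad peaks of highest pileup of a vehicle peak inside, 3 were among these 8. The part of HOXB13 itself in these 8 was not tested.

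The summit of a broad peak lay off its centre. On a scale from 0 at the centre to 100% at an edge, the median distance was 32.7% (30.6 to 34.6), against 14.6% in narrower peaks of the same pileup. The summit lay more than 50% of the way out in 412 broad peaks, 26.1% (23.9 to 28.3), against 2.82% of narrower peaks so weighted. It lay within 25% of the centre in 600, 38.0% (35.6 to 40.4), against 73.3%. The sides were used about equally, with the summit left of the centre in 794 of 1579, 50.3% (47.8 to 52.8).

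In base pairs, the added width lay on both sides of the summit, and more on one. The nearer edge was a median of 198 bp from the summit (192 to 201) in broad peaks and 126 bp in narrower peaks of the same pileup. The farther edge was 387 bp away (382 to 391), against 183 bp. With height, the 2 edges behaved differently. At a pileup of 15 to 19 the nearer edge of broad peaks lay 130 bp out and the farther edge 411 bp. At 60 to 79 these were 223 and 366 bp. In narrower peaks the same 2 classes had nearer edges at 69 and 160 bp and farther edges at 110 and 218.5 bp. The summit of broad peaks lay 49.5% (40.8 to 57.6) off the centre at 15 to 19 and 24.1% (18.9 to 29.0) at 60 to 79, so low broad peaks were the more lopsided. Narrower peaks also had a fall between these classes, from 21.9% to 12.6%. The limit on width sets part of the values in broad peaks. A summit cannot be close to both edges of a wide peak, and their lowest distance to the farther edge was 252 bp.

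**Figure D2:**
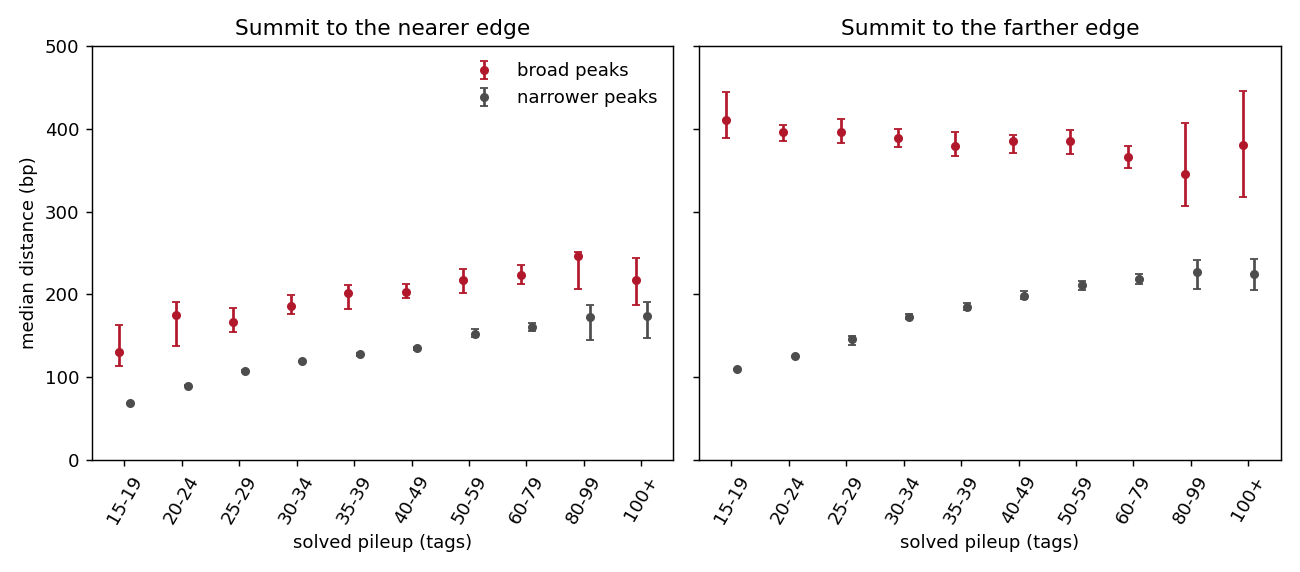
Median distance in bp from the summit to the nearer edge (left) and the farther edge (right), by class of solved pileup in tags, for broad peaks of at least 500 bp and narrower peaks. Bars are binomial order-statistic intervals of the median. The farther edge of broad peaks stays between 345 and 411 bp in every class shown, while in narrower peaks it rises from 110 bp at 15 to 19 tags to 224.5 bp at 100 or more.

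Broad peaks had a vehicle peak more often than the list as a whole, and somewhat more often than narrower peaks of their height. A vehicle peak overlapped 488 of 1579 by at least 1 bp, 30.9% (28.6 to 33.3), against 4.07% of all 64691 peaks. Narrower peaks weighted to the same pileups reached 26.1% (SE 0.430), a ratio of 1.18. In the opposite direction, broad peaks made up 18.5% of the 2633 peaks with a vehicle peak. Weighted by fold enrichment in place of pileup, the narrower peaks reached 17.98%. With vehicle peaks of a −log10 q of at least 5 only, the shares were 14.5% (12.8 to 16.3) and 14.1%, and the interval held the narrower peaks' share.

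The share rose with pileup in both classes of width. No vehicle peak was called at any of the 85 broad peaks of a pileup under 20, and 3 counts, taken as the limit that a count of 0 allows, would be 3.53%. In narrower peaks the share was 0.343% of 12251 at a pileup of up to 14 and 0.663% of 27286 at 15 to 19. The count of 0 therefore does not set the 85 apart from them. At a pileup of 30 to 34, 14.7% of 238 broad peaks had one (10.5 to 19.9), against 9.46% of narrower peaks. At 50 to 59 the shares were 62.5% (54.7 to 69.8) of 168 and 47.3% (43.0 to 51.6) of 541. At 80 to 99 they were 93.9% and 93.1%, and at 100 or more 96.8% and 97.2%. Among these classes, the difference was largest at 50 to 59. At 80 to 99 the shares were close, and at 100 or more that of broad peaks was slightly the lower.

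Within 100 bp of the summit, broad peaks and narrower peaks of the same pileup had like shares. A wide peak offers more room for an overlap, so the vehicle summits were also counted in windows of fixed size. A vehicle summit lay within 100 bp of the summit of 390 broad peaks, 24.7% (22.6 to 26.9), against 3.67% of all peaks and 24.8% (SE 0.433) of narrower peaks of the same pileup. The difference was −0.08 percentage points. Within 50 bp the shares were 18.6% (16.7 to 20.6) and 19.2%. Within 200 bp they were 28.7% (26.5 to 31.0) and 26.0%, and the interval of the broad peaks lay above the share of the narrower ones. With weights by fold enrichment the narrower peaks had 17.0%, below the broad peaks. Single classes of pileup differed in both directions. At 50 to 59 tags a vehicle summit lay within 100 bp of 51.8% (44.0 to 59.5) of 168 broad peaks. The share was 44.7% (40.5 to 49.0) of 541 narrower ones. At 80 to 99 the shares were 77.6% (63.4 to 88.2) of 49 broad peaks and 90.8% (82.7 to 95.9) of 87 narrower ones.

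Away from the summit, vehicle summits were more frequent at broad peaks. A vehicle summit 140 to 500 bp from the GSK2879552 summit, and so farther than the narrowest GSK2879552 peak is wide (139 bp), was found at 87 broad peaks, 5.51% (4.44 to 6.75). The share was 0.416% over all peaks and 1.28% (SE 0.172) in narrower peaks of the same pileup, a ratio of 4.31. The farther edge lay a median of 387 bp from the summit in broad peaks and 183 bp in these narrower peaks. More of this ring thus lay inside broad peaks, and the part that width plays in the difference was not tested. At 65 of the 87 no vehicle summit lay within 100 bp of the GSK2879552 summit, and at 22 there was one there as well. The share was 7.20% (4.39 to 11.01) of the broad peaks of pileup 40 to 49 and 11.3% (6.74 to 17.5) at 60 to 79, against 1.95% and 1.52% of the narrower ones. Limited to a local background under 2 times the genome-wide value it was 3.65% (2.65 to 4.89) against 0.630%. With vehicle peaks of a −log10 q of at least 5 it was 1.58% (1.03 to 2.33) against 0.645%.

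**Figure D3:**
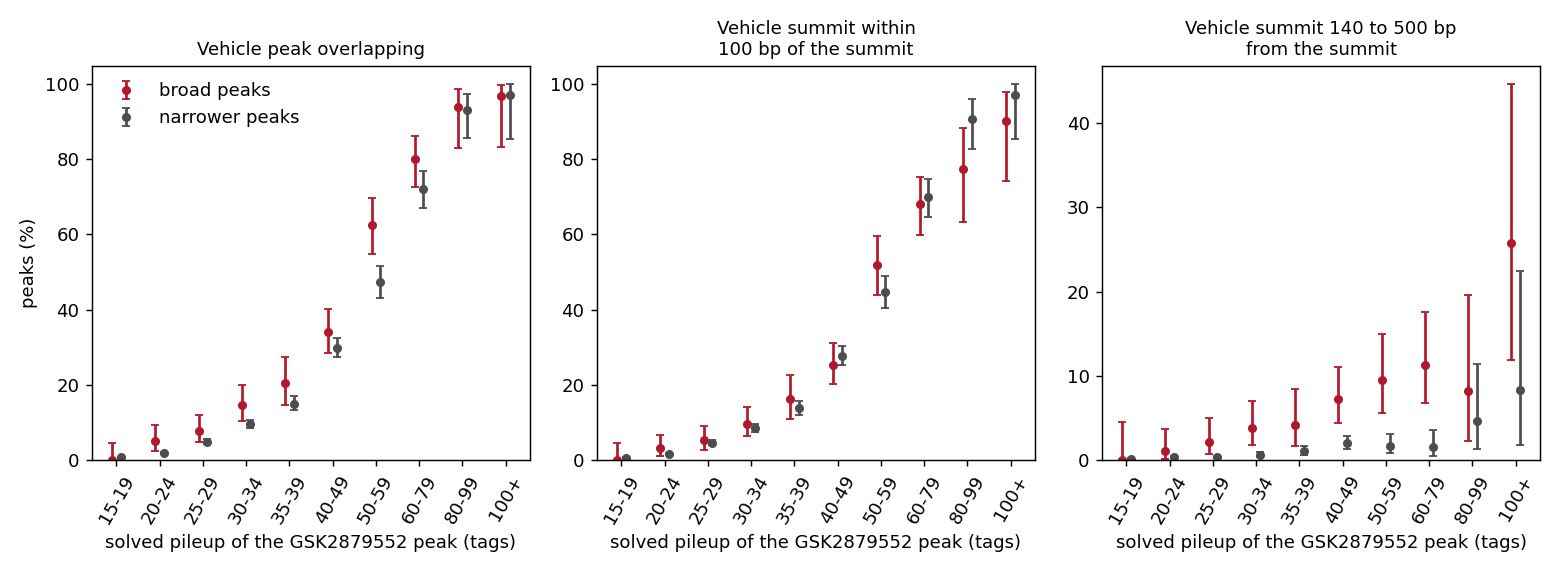
Percent of GSK2879552 peaks with an overlapping vehicle peak (left), with a vehicle summit within 100 bp of the summit (middle) and with one 140 to 500 bp away (right, other scale), by solved pileup in tags, for broad and narrower peaks. Points are shares and bars exact 95% binomial intervals. In the middle panel the shares of broad and narrower peaks were 68.0% and 70.0% at 60 to 79 tags. They were 51.8% and 44.7% at 50 to 59, and 77.6% and 90.8% at 80 to 99. The right panel shows broad peaks higher from 20 to 24 tags on, with 11.3% against 1.52% at 60 to 79.

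The vehicle peaks at broad peaks were themselves wider. The 519 vehicle peaks there had a median width of 152 bp (145 to 159). The 2153 at narrower peaks had a median of 127 bp, or 139 bp when weighted to the same vehicle pileups. At a vehicle pileup of 12 to 14 the medians were 184 bp (163 to 201) at 112 vehicle peaks and 154 bp (148 to 163) at 221. At 15 to 19 they were 236 bp (189 to 265) at 44 and 187 bp (173 to 204) at 94. At 5 to 7 the values, 115 bp (100 to 126) and 104 bp (100 to 109), were close to 100 bp, the narrowest vehicle peak. In each of the 8 classes of vehicle pileup the median was higher at broad peaks, while the intervals met or overlapped in all 8.

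Summits in the 2 lists lay farther apart at broad peaks. The median distance was 42 bp (37 to 47) at broad and 31 bp (30 to 33) at narrower peaks, and 27 bp there when weighted to equal vehicle pileup. A distance over 139 bp was found for 91 of the 519 vehicle peaks at broad peaks, 17.5% (14.4 to 21.1), and for 74 of 2153 at narrower peaks, 3.44% (2.71 to 4.296). A narrow peak cannot hold a summit far from its own, so the medians and these 2 shares also depend on width.

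**Figure D4:**
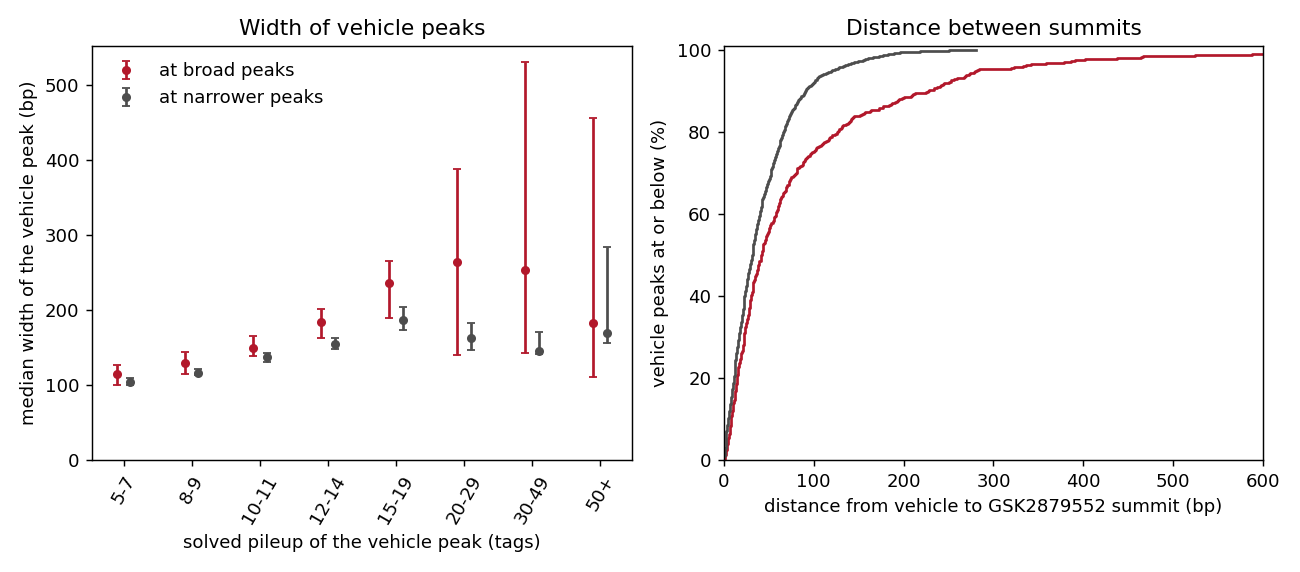
Left, median width in bp of vehicle peaks at broad and at narrower GSK2879552 peaks, by the vehicle peak's own pileup in tags, with binomial order-statistic intervals. Right, cumulative percent of vehicle peaks by the distance in bp between the vehicle and the GSK2879552 summit, drawn to 600 bp: 17.5% of those at broad peaks lie beyond 139 bp and 3.44% of those at narrower peaks.

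In the vehicle list, 5 peaks of at least 500 bp lay in the region the members were taken from, and all 5 overlapped a broad GSK2879552 peak. Of the 2672 vehicle peaks of any width at a GSK2879552 peak of that region, 519 were at a broad one, 19.4%. A wide vehicle peak also has more room to overlap a broad peak. The 5 were as follows. They lay at chr1:564891-565395, chr11:10530736-10531307, chr17:41400612-41401159, chr20:45417475-45418013 and chr22:50467322-50467851, and spanned 505, 572, 548, 539 and 530 bp. Their pileups were 106, 41, 15, 27 and 31 tags. The first lay in the stretch of chromosome 1 with a local background near 70 tags.

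A pair of separate vehicle peaks inside 1 broad peak was rare, and more frequent than in narrower peaks. Of the broad peaks, 29 held exactly 2 vehicle peaks and 1 held 3, in all 1.90% (1.29 to 2.70), against 0.0587% of all peaks and 0.168% (SE 0.0761) of narrower peaks of the same pileup. These 30 were 78.9% of the peaks with 2 or more vehicle peaks. The other 8 were narrower peaks of 292 to 494 bp. Room for 2 peaks grows with width. Of the 61 broad peaks of 800 bp or more, 10 held 2 or more, 16.4% (8.15 to 28.1). Of the 1022 under 600 bp, 12 did, 1.17% (0.608 to 2.04). The wider class also had the higher median pileup, 49 against 33 tags, and background, 2.16 against 1.62 times the genome-wide value. At a pileup of 100 or more, 8 of 31 broad peaks held 2 or more, 25.8% (11.9 to 44.6), and 0 of 36 narrower ones. At 30 to 34 tags, 0 of 238 broad peaks did. The part that each plays was not tested. The local background was at least 5 times the genome-wide one at 4 of the 30, and without such sites the share was 1.66% (1.08 to 2.42). Limited to sites under 2 times, 8 peaks remained, 0.679% (0.294 to 1.33), against 0.0776%.

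The distance between the outermost vehicle summits in these 30 peaks had a median of 296.5 bp and ranged from 149 to 866 bp. The gap between neighbouring vehicle peaks ranged from 59 to 319 bp. In 26 of the 30, 1 of the vehicle summits lay within 100 bp of the GSK2879552 summit, and in 26 the farthest lay more than 139 bp from it.

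At chr3:96336046-96336934, 889 bp wide, the GSK2879552 peak had a fold enrichment of 14.0, a pileup of 95 and its summit 754 bp from the start of the peak. The first vehicle peak inside, chr3:96336572-96336866, had a pileup of 53 and its summit 6 bp from that of the GSK2879552 peak. The second, chr3:96336093-96336281, had a pileup of 14 and its summit 620 bp away. The taller vehicle peak thus marked the GSK2879552 summit, and the lower one lay under the long arm of the broad peak.

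The same arrangement was found at chr22:50467000-50467932, 933 bp wide with a pileup of 87. One vehicle peak there had a pileup of 31 and a summit 14 bp from the GSK2879552 summit, and the other a pileup of 17 and a summit 524 bp away. At chr6:108476857-108477880, 1024 bp wide with a pileup of 104, the vehicle pileups were 22 and 10 and the distances 45 and 342 bp. At chr4:68265204-68265718, 515 bp wide with a pileup of 106, they were 80 and 34 at 1 and 244 bp. In each of these 3 the taller vehicle peak was the one at the GSK2879552 summit. On chromosome 6, however, the lower vehicle peak lay on the shorter side of the broad peak, 473 bp from summit to edge against 550 bp.

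At other broad peaks the 2 vehicle peaks were of like height. At chr11:3674998-3676030 they had pileups of 12 and 13, with summits 376 and 102 bp from that of the GSK2879552 peak. At chr15:45789478-45790253 both had a pileup of 10, at 130 and 198 bp on opposite sides. At chr3:120948775-120949621 they had 10 and 11, at 72 and 97 bp on opposite sides. In these 3 the GSK2879552 summit lay between the 2 vehicle summits. At chrX:185484-186966 both vehicle peaks, with 17 tags each, lay 895 and 1100 bp from the GSK2879552 summit. The peaks at chr15:45789478-45790253, chr3:120948775-120949621 and chr22:50467000-50467932 were singled out after their values were seen.

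The 3 vehicle peaks inside chr1:569219-570286 had pileups of 160, 69 and 59, with summits 12, 588 and 878 bp from the GSK2879552 summit. Their fold enrichments were 6.52, 3.06 and 2.93, over vehicle backgrounds of 19.5 to 23.7 tags. The 4 broad peaks of this stretch of chromosome 1 all held at least 1 vehicle peak.

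Some of the widest broad peaks had no vehicle peak, while nearly all of the tallest had one. Of the 61 of 800 bp or more, 34 had one, and so had 46 of the 49 of pileup 80 to 99 and 30 of the 31 of pileup 100 or more. The widest without one were chr5:92393852-92394887 with 1036 bp and a pileup of 56, chr4:62109376-62110395 with 1020 bp and 29, and chr4:190683569-190684573 with 1005 bp and 44. Next came chr3:197704137-197705129 and chr21:24524613-24525604, with 993 and 992 bp and pileups of 29 and 35. The tallest, singled out after their values were seen and under a background of 5 times, were chr10:36178988-36179592 with a pileup of 86, chr8:88178488-88179046 with 83 and chr5:58598977-58599506 with 82. In all, 1091 of the 1579 had none.

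Broad peaks had fewer close neighbours than narrower peaks of the same pileup. Another GSK2879552 peak lay within 10 kb, edge to edge, of 695 broad peaks, 44.0% (41.5 to 46.5), against 55.6% (SE 0.540) of narrower peaks. The difference varied with pileup. At 25 to 29 tags the shares were 32.0% (26.1 to 38.5) and 54.9%, at 60 to 79 both were 56.7%. At 80 to 99 they were 38.8% (25.2 to 53.8) and 60.9%. The nearest peak was up to 1 kb away at 10.2% (8.75 to 11.8) against 16.3%, and over 1 to 5 kb away at 11.5% (9.99 to 13.2) against 20.5%. Over 5 to 10 kb the order turned, with 22.3% (20.3 to 24.4) against 18.9%, and over 10 to 20 kb it was 26.5% against 19.9%. The median distance was 11528 bp in broad and 8212 bp in narrower peaks so weighted. When the narrower peaks were weighted by fold enrichment, 43.1% had another peak within 10 kb and the difference turned, while weights by pileup and local background together gave 60.6%. No 2 peaks of the list lay closer than 51 bp, so signals nearer to each other appear as 1 peak. The part this plays in the difference was not tested.

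Over a wider window the surroundings of broad and narrower peaks were alike, with a median of 3 other peaks within 50 kb of each. Another broad peak was within 10 kb of 54 broad peaks, 3.42% (2.58 to 4.44), and within 100 kb of 276, 17.5% (15.6 to 19.4). The median distance to the next broad peak was 434 kb. No values for narrower peaks stand beside these, so they do not show whether broad peaks cluster.

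There were 5 pairs of broad peaks at most 1 kb apart. The closest lay on chromosome X, where chrX:184918-185429 ended 54 bp before chrX:185484-186966, with pileups of 56 and 55. On chromosome 6, chr6:79348695-79349315 and chr6:79349388-79349991 lay 72 bp apart with pileups of 31 and 28, and the first held 1 vehicle peak. On chromosome 18, chr18:107869-108613 and chr18:108793-109592 lay 179 bp apart with pileups of 139 and 81. The other 2 pairs lay on chromosome 1 between 564485 and 567749, at 490 and 689 bp. Only the pair on chromosome 6 had a local background under 3 times the genome-wide one, 2.04 and 2.06 times.

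Across the genome, broad peaks were spread thinly. Of 2773 bins of 1 Mb with any peak, 735 held 1 broad peak, 264 held 2, 70 held 3 and 17 held 4, while 1680 held none. The most were 6, found in 3 bins, which began at 88 Mb on chromosome 8, at 34 Mb on chromosome 11 and at 0 Mb on chromosome 1. The first 2 had 34 and 45 peaks in all, and 2 and 1 of their 6 broad peaks had a vehicle peak. The bin on chromosome 1 held 39 peaks and included the 4 of high background. Of its 6 broad peaks 5 had a vehicle peak. Another 4 bins held 5 each. They began at 216 Mb on chromosome 2, 78 Mb on chromosome 1, 70 Mb on chromosome 18 and 37 Mb on chromosome 14.

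The share of broad peaks was compared between chromosomes. It had a median of 2.40% over the 23 chromosomes. The highest was 3.59% (2.47 to 5.03) on chromosome 21, 32 of 892 peaks, and the lowest 1.21% (0.629 to 2.11) on chromosome 19, 12 of 988. The share each chromosome's pileups would give at the rates of all chromosomes together lay within the exact interval on 21 of 23. Chromosome 8, with 112 broad peaks, 3.11% (2.57 to 3.73) against 2.54%, lay above it. Chromosome 22, with 12, 1.57% (0.812 to 2.72) against 3.03%, lay below. Per Mb, broad peaks were fewest on chromosome X, 0.0923, against a median of 0.621, but that chromosome had only 680 peaks of any width, of which 1.91% were broad (1.02 to 3.25) against 1.87% from its pileups. The outermost 2 Mb of each chromosome's span with peaks held 59 broad peaks, 3.74% (2.86 to 4.79), against 3.11% of narrower peaks of the same pileup, a difference within the interval.

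**Figure D5:**
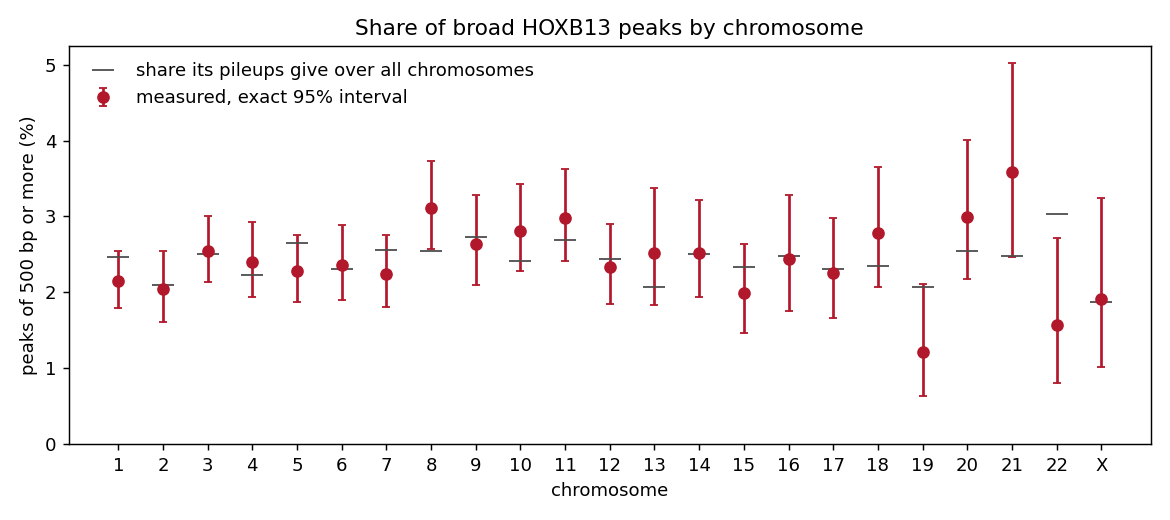
Percent of each chromosome's peaks that were at least 500 bp wide (points, with exact 95% binomial intervals) for chromosomes 1 to 22 and X. Dashes mark the percent that the chromosome's pileups give at the rates over all chromosomes. The interval lies above the dash on chromosome 8 and below it on chromosome 22.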

How the data were processed

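The authors deposited 1 narrowPeak list per treatment, made from 2 lanes. Per the submitters' processing notes, the tools were MACS2 2.1.2, BWA 0.7.2 and SAMtools 0.1.18, and hg19 (also listed as GRCh37) was the build. The sources used here do not give the control, the filters or the calling settings. The deposited fold enrichment is a ratio at the summit. The authors' p-value and q-value at the summit are on a −log10 scale. The deposited score repeats the q-value as a whole number and was not used. Start, end and summit offset were used as deposited, with coordinates given from 1.

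Pileup k and local background λ were solved so that (k + 1)/(λ + 1) gave the fold enrichment and the Poisson upper tail the p-value, and a whole k within 0.001 was found for 100% of both lists. There were 68725 GSK2879552 and 3722 vehicle peaks. Narrower peaks were weighted to the broad peaks by pileup class (single pileups below 40, wider classes above). No test was possible with 1 library per treatment, so shares have exact 95% binomial intervals, medians have binomial order-statistic intervals and weighted shares a standard error. The scripts (Python 3.11.15, SciPy 1.17.1) were tested on simulated data. Alternatives were other widths, stricter thresholds, other windows and other weights. Members, lists and measures were chosen with earlier results of these data known, and the ring of 140 to 500 bp was added after the data were seen. Peaks were named by fixed lists (widest, highest fold enrichment, most or tallest vehicle peaks, widest without one, at the limit, closest pairs, densest bins), other than those said to be singled out. No genome or annotation of hg19 was used, so genes, promoters, motifs and sequences were not analysed here. Signal tracks were not analysed here.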

Additional observations from a re-analysis of the deposited data

Results flagged for a closer look

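Peaks of at least 500 bp were also present outside the region the members were taken from, in data that no comparison above used. The flanks of the long peak-free stretches held 103, 3.45% (2.82 to 4.17) of 2988 peaks there. Their median pileup was 86, and their background was 4.18 times the genome-wide one at the median, the widest spanned 3525 bp, and 58 had a vehicle peak. Chromosome Y and the other sequences held 81 together. Of these, 23 lay on chromosome Y, 6.22% (3.98 to 9.18) of 370 peaks, and 58 on other sequences, 8.58% (6.58 to 10.95) of 676, where background stood at 12.3 times the genome-wide level at the median and 44 had a vehicle peak.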

How the results depend on the processing

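No paired analysis was possible because each treatment has 1 peak list for both lanes. Lanes could not be left out for the same reason. The number of broad peaks was 4435 from 400 bp and 557 from 600 bp. From 400 bp the share with a vehicle peak was 22.8%, with 2 or more 0.789% and with a vehicle summit within 100 bp 19.1%. From 600 bp these were 35.9%, 3.23% and 27.5%, and the summit lay 34.9% off the centre. Under 2 times the genome-wide background they were 23.1%, 0.679% and 18.6%, and 3.65% had a vehicle summit 140 to 500 bp away. With vehicle peaks of a −log10 q of at least 5 these 4 shares were 14.5%, 0.633%, 12.4% and 1.58%, and the vehicle peaks at broad peaks were 187.5 bp wide against 159 bp. Windows of 50 and 200 bp at the summit gave 18.6% and 28.7%. At a −log10 q of at least 10 the summit lay 30.3% off the centre. Another peak lay within 5 kb of 21.7% and within 20 kb of 70.6%. The cause of these shifts was not tested.

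Broad peaks stayed on the same side of the narrower ones in 35 of 42 alternatives, counted by direction only. A difference as small as 14.5% against 14.1%, the share with a vehicle peak of a −log10 q of at least 5, counts among the 35. Of the other 7, 5 concerned the share with a vehicle summit within 100 bp, among them weights by fold enrichment (24.7% against 17.0%) and the 200 bp window (28.7% against 26.0%), 1 the neighbours within 10 kb with weights by fold enrichment, and 1 the outermost 2 Mb from 400 bp, 3.09% against 3.38%. Weights by pileup and local background together, the limit of 5 times the background and distances between summits were chosen after seeing the data. The vehicle list is far shorter, with 3722 peaks against 68725. Few sites of low GSK2879552 pileup appear in it: 0.663% of narrower peaks at 15 to 19 tags had a vehicle peak, against 97.2% at 100 or more. A missing vehicle peak therefore does not show a missing site. The part that the depth of the vehicle library plays was not tested.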
